A study of Mus musculus with 3 samples.

Results

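The guanylate-binding proteins (GBPs) are large GTPases of the dynamin superfamily, and the 7 genes described here are the mouse genes Gbp2, Gbp3, Gbp4, Gbp5, Gbp6, Gbp7 and Gbp9, taken as a family by symbol from 22350 protein-coding genes on chromosomes 1 to 19 and X. Phosphorylated Ser5 Pol_II, the isoform of RNA polymerase II found from initiation onwards along transcribed genes, was mapped by ChIP-Seq in bone marrow-derived macrophages (BMDM) of female Fvb mice (Fvb/Hsd in the study's methods) on day 7 of differentiation. There were 3 libraries. The first was Ser5 from untreated cells, the next was Ser5 from cells treated with LPS (a bacterial cell wall component that activates macrophages) at 10 ng/ml for 2 h, and the last was input DNA from untreated cells, which is chromatin sequenced without immunoprecipitation. The sample labels name LPS alone, and the study's text and supplementary methods also call the stimulated Ser5 library LPS-treated. In contrast, a browser panel of the study names it as LPS plus gamma interferon (γIFN). The treatment is called LPS below as labelled, and LPS alone and LPS with γIFN cannot be told apart here. Each condition had 1 library, so there is no measure of the spread between replicates and no significance test, and all intervals cover counting error alone, at 95%.

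GBPs are among the best known products of the interferon response. γIFN signals through its receptor and JAK kinases. Type I interferon, which macrophages release after LPS, signals through a receptor of its own, also with JAK kinases. Both pathways reach GBP promoters, at elements called GAS (gamma-activated site) and ISRE (interferon-stimulated response element). The proteins gather on vacuoles that hold bacteria or parasites and on bacteria in the cytosol, where they help to break the membrane and to start inflammasome signalling. In the mouse the genes lie in a cluster on chromosome 3 and another on chromosome 5, whose members share long stretches of near-identical sequence.

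Positions are those of GENCODE M1 on mm9. Gbp5 (ENSMUSG00000040264.7, chr3:142159864-142185308), Gbp7 (ENSMUSG00000040253.9, chr3:142193302-142213047), Gbp3 (ENSMUSG00000028268.8, chr3:142223016-142236173) and Gbp2 (ENSMUSG00000028270.6, chr3:142283566-142300972) follow each other on the plus strand of chromosome 3. Gbp9 (ENSMUSG00000029298.8, chr5:105507413-105539311), Gbp4 (ENSMUSG00000079363.2, chr5:105544786-105568605) and Gbp6 (ENSMUSG00000079362.2, chr5:105699723-105722718) lie on the minus strand of chromosome 5. The annotation holds 4 more genes named Gbp. These are Gbp1 on chromosome 3 and Gbp8, Gbp10 and Gbp11 on chromosome 5.

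RefSeq promoter windows (table of assembly GRCm38.p6, placed in mm9 by an exact match) were found for 4 of the 7 members. The 250 bases before the RefSeq start are shown for Gbp5, Gbp7, Gbp3 and Gbp2, which are all members with a window and the 4 genes whose Ser5 signal is described most closely here. Each window overlapped a Ser5 peak of the LPS library. Capitals mark matches, on either strand, to the ISRE core (TTTC, any 2 bases and TTTC again), to GAS (TTCNNNGAA) and to the kappaB site, the NF-kappaB element. All windows are on the plus strand.
Gbp5, chr3:142159648-142159897: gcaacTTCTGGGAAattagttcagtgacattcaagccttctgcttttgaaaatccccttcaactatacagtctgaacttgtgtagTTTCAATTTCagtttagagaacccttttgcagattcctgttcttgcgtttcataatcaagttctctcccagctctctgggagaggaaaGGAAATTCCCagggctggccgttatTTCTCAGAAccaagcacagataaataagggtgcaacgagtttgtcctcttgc
Gbp7, chr3:142193050-142193299: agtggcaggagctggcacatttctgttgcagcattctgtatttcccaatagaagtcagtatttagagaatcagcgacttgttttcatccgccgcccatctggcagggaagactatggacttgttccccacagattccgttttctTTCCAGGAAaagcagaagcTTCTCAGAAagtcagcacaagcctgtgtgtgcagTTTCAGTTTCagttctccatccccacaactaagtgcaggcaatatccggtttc
Gbp3, chr3:142222758-142223007: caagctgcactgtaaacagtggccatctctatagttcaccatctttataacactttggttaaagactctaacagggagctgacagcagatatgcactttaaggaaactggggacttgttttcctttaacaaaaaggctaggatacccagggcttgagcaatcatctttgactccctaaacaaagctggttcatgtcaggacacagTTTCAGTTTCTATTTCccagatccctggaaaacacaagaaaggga
Gbp2, chr3:142283377-142283626: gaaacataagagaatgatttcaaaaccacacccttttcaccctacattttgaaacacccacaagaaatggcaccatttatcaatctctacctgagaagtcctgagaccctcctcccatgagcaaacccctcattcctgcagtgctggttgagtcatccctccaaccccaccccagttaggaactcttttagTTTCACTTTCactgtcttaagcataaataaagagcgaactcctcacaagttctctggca

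Each of the 4 windows held at least 1 ISRE core. In Gbp5 it lay 165 to 156 bases before the RefSeq start. In Gbp7 it lay 53 to 44 bases, and in Gbp2 59 to 50 bases, before the start. Gbp3 held 2 matches that overlap each other, at 45 to 36 and 39 to 30 bases. GAS was matched at 2 places in Gbp5 and at 2 places in Gbp7, and kappaB at 1 place in Gbp5, 77 to 68 bases before the start. Matches of different motifs did not overlap. A further RefSeq window of Gbp3, for a start downstream of the first, held 0 matches to the 3 motifs. The window of the RefSeq gene Gbp2b (chr3:142257561-142257810), which ends just before the annotated start of Gbp1, also held 1 ISRE core, 137 to 128 bases before its start, and overlapped 0 LPS peaks, so the element was not particular to the genes with peaks. Of all 32851 RefSeq windows of this length 2.98% held the ISRE core, 7.02% GAS, 7.25% kappaB and 0.332% both ISRE core and GAS, which Gbp5 and Gbp7 both held. A match is a stretch of letters, and no factor was measured here.

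The 3 libraries had 7616771 (untreated), 6249819 (LPS) and 7533308 (input) tags on chromosomes 1 to 19 and X, of which 84.5%, 81.4% and 82.7% lay at distinct positions. The tags are 45 bases long in the untreated file, 30 in the LPS file and 36 in the input file. The study's methods give the lengths of both Ser5 libraries the other way round, and the lengths in the files are used here. Tags were counted by their 5′ end over the gene body and over the TSS ± 1 kb, and levels are given as TPM per kb, where TPM are tags scaled to a library total of 1000000. All 4 genes set as a check of the LPS label (Ccl5, Tnf, Il1b and Cxcl10) were at least 2 times higher after LPS over the gene body, by a median of 66.7 times. The 7 macrophage markers found had gene body levels between 1.94 and 105 TPM per kb in untreated cells and between 0.444 and 156 after LPS. Of these 7 markers 5 were at least 2 times lower and 2 at least 2 times higher after LPS, with a median ratio of 0.405. Of all protein-coding genes with at least 10 Ser5 tags 11.2% were lower and 5.82% higher over the gene body, with a median of 0.873. These shares also stand beside the other-cell markers below. The markers of T cells, B cells, neutrophils and fibroblasts stayed at or below 0.927 TPM per kb in untreated cells and 2.23 after LPS, and those of erythroid cells reached 2.85 (Klf1) and 1.05. Of the 15 other-cell markers with enough tags 2 were at least 2 times higher (Ms4a1 and Camp, with 34 and 29 LPS tags), and the 3 erythroid markers were at least 2 times lower. Their part in the results was not tested.

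In untreated macrophages the GBP genes carried about as much Ser5 signal as input at their starts and less along their bodies, by the main scaling. Over the 7 gene bodies there were 148 untreated Ser5 tags and 395 input tags, a ratio of 0.371 (0.305 to 0.449) after scaling. Over the gene body each member's ratio to input lay between 0.240 for Gbp9 and 0.428 for Gbp3. Around the TSS the sums were 77 and 71 tags, a ratio of 1.07 (0.767 to 1.50). This level depends on the scaling. Scaled to tags outside all Ser5 peaks, the ratio to input was 0.705 over the gene bodies and 2.04 at the TSS. Of the protein-coding genes with at least 10 tags over both libraries 37.6% (of 18412) were at least 2 times above input over the gene body and 71.9% (of 14858) at the TSS in untreated cells, by the main scaling. Of the members with at least 10 tags over both libraries 0 of 6 were so over the gene body. At the TSS 1 of 5 was so, Gbp9, with 10 Ser5 and 3 input tags and a ratio of 3.30 (0.849 to 18.6).

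After LPS the 4 chromosome 3 members had more Ser5 Pol_II tags at the start and in each part of the gene body, and the 3 chromosome 5 members stayed at few tags. The 7 gene bodies together had 4132 LPS tags against 148 untreated tags, a ratio of 34.0 (28.9 to 40.4) after scaling. The 7 TSS windows had 1494 against 77 tags, a ratio of 23.6 (18.8 to 30.1). Against input the LPS sums were 12.6 (11.4 to 14.0) times higher over the gene bodies and 25.4 times at the TSS, and 25.8 and 51.9 times when scaled to tags outside the peaks. Over the gene body 5 of 7 members reached 2 times the untreated level in the LPS library, and 0 were below 0.5 times. In the background 5.82% of 17386 protein-coding genes with at least 10 Ser5 tags were higher by that rule and 11.2% were lower. At the TSS 5 of the 6 members with enough tags were higher and 0 were lower, beside 5.61% and 14.1% of 12536 genes. The median gene had a ratio of 0.873 over the gene body and 0.831 at the TSS. Scaling to tags outside the peaks raised every ratio by 0.11 on the log2 scale, and 6 of 7 members then passed 2 times over the gene body.

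**Figure D1:**
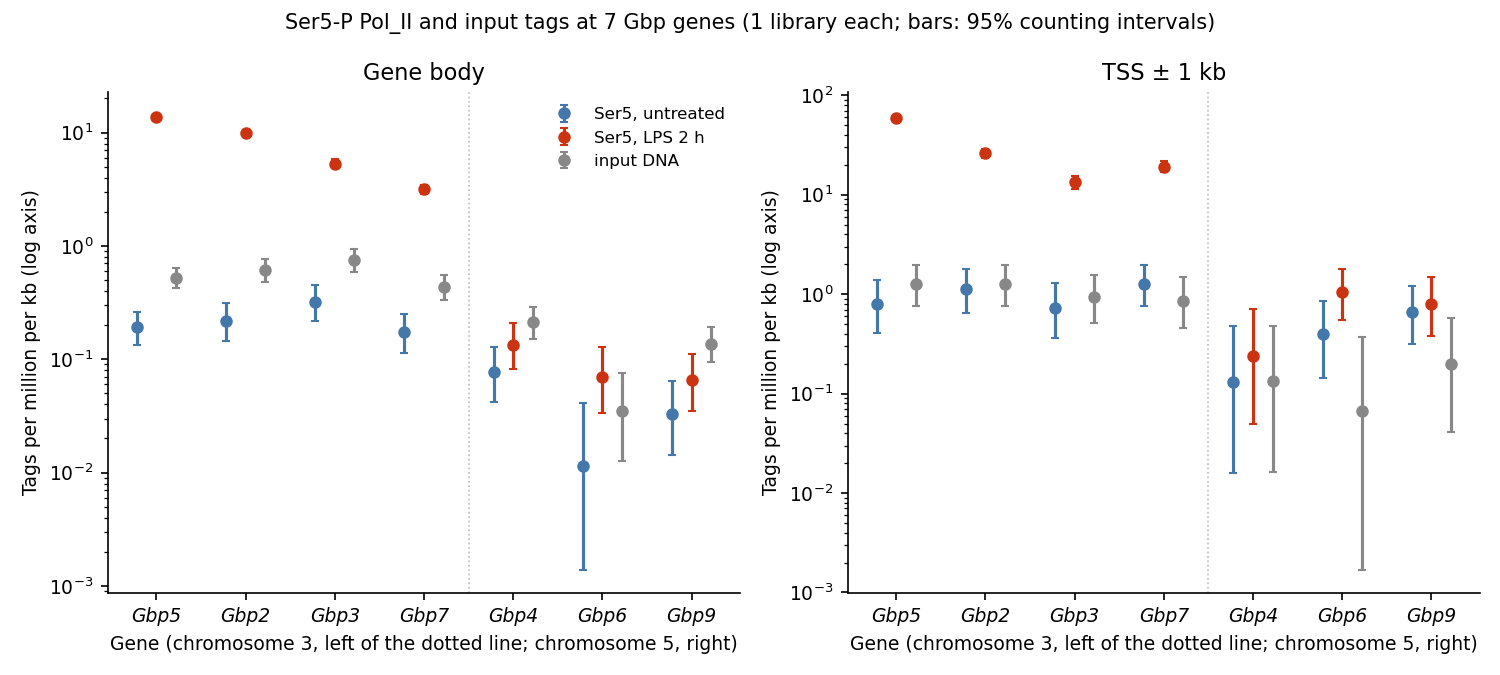
Level of Ser5-P Pol_II and input at the 7 members in TPM per kb on a log axis, over the gene body (left) and the TSS ± 1 kb (right), with 1 point per library and 95% counting intervals. The LPS points of Gbp5, Gbp2, Gbp3 and Gbp7 lie between 3.15 and 13.7 TPM per kb over the gene body, above both other libraries, while those of Gbp4, Gbp6 and Gbp9 lie between 0.0652 and 0.134.

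Gbp5, which promotes inflammasome assembly, had the largest response of the family. Its gene body held 37 untreated, 2173 LPS and 100 input tags, a ratio of LPS to untreated of 71.6 (51.8 to 102), rank 7 of 17386 genes. Its TSS window held 12, 737 and 19 tags, a ratio of 74.8 (42.6 to 146), rank 3 of 12536. Its LPS level was 13.7 (13.1 to 14.3) TPM per kb over the gene body, from 0.191 (0.134 to 0.263) in untreated cells. Untreated Gbp5 lay below the median protein-coding gene, which had 0.420 TPM per kb, and LPS Gbp5 ranked 466 of 22350 genes.

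Gbp2, a prenylated GBP that is recruited to parasite vacuoles, came next. It had 29 untreated, 1091 LPS and 80 input tags over the gene body, a ratio of 45.8 (31.7 to 68.8). At the TSS it had 17, 325 and 19 tags, a ratio of 23.3 (14.3 to 40.5). Its LPS level was 10.0 (9.44 to 10.6) TPM per kb over the gene body, from 0.219 (0.146 to 0.314) in untreated cells.

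Gbp7 and Gbp3 formed a pair with similar ratios. Gbp7, linked to assembly of the phagocyte oxidase on vacuoles, had 26 untreated, 389 LPS and 64 input tags over the gene body, a ratio of 18.2 (12.3 to 28.3). Gbp3 had 32, 436 and 74 tags, a ratio of 16.6 (11.6 to 24.6). At the TSS Gbp7 had 19, 239 and 13 tags with a ratio of 15.3 (9.60 to 25.9), and Gbp3 had 11, 167 and 14 tags with a ratio of 18.5 (10.1 to 37.8).

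By LPS level over the gene body the order was Gbp5, Gbp2, Gbp3 (5.30, 4.82 to 5.82 TPM per kb) and Gbp7 (3.15, 2.85 to 3.48), and the intervals of these 4 do not overlap. In untreated cells their intervals overlapped, between 0.173 for Gbp7 and 0.319 for Gbp3. By ratio of LPS to untreated over the gene body the intervals of Gbp5 and Gbp2 overlap, as do those of Gbp7 and Gbp3, and both of the first lie above both of the last.

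**Figure D2:**
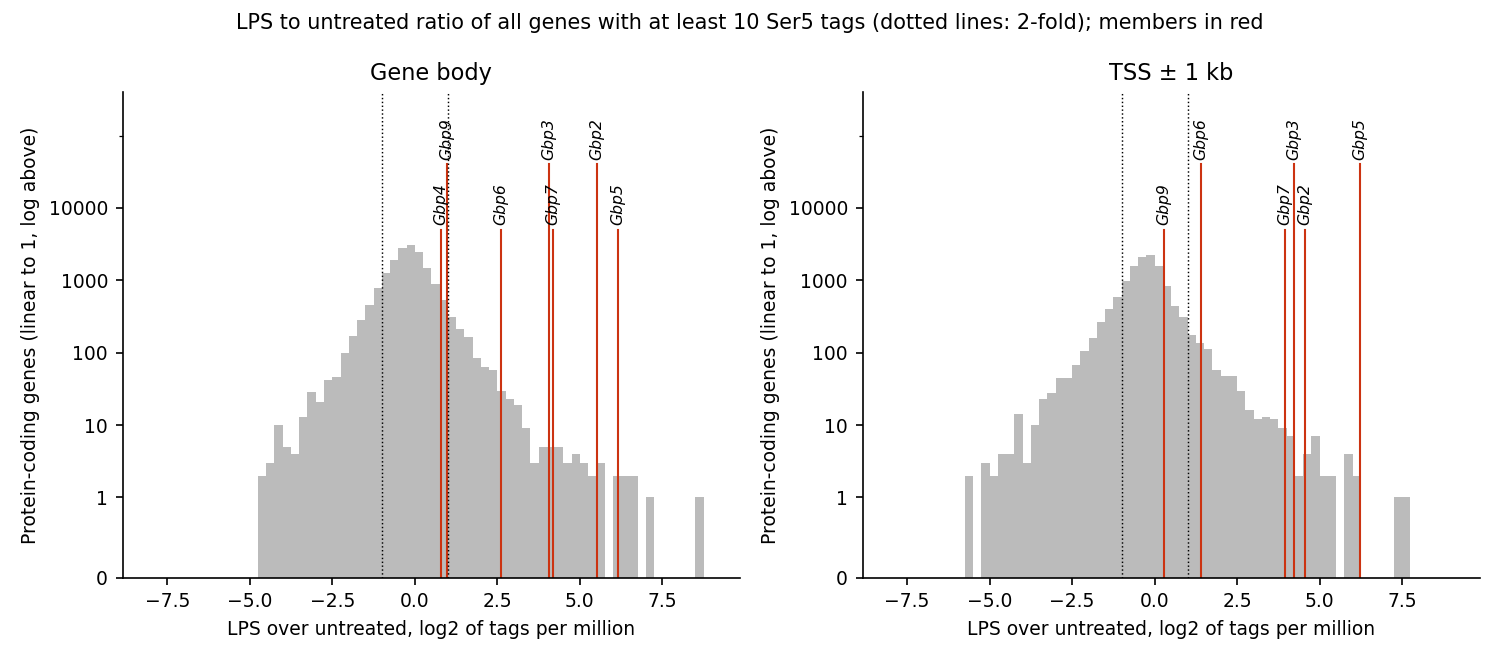
Number of protein-coding genes by ratio of LPS to untreated on the log2 scale, over the gene body (left, 17386 genes) and the TSS ± 1 kb (right, 12536 genes), for genes with at least 10 Ser5 tags, with the members as red lines and dotted lines at 2-fold. Gbp5, Gbp2, Gbp3 and Gbp7 lie in the right tail in both windows, Gbp4 and Gbp9 lie just under the upper dotted line over the gene body, and Gbp4 is left out at the TSS for its low count.

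The 3 members on chromosome 5 had few tags in every library, input included. Gbp6 had 2 untreated, 10 LPS and 6 input tags over the gene body, a ratio of 6.09 (1.30 to 57.2), and 6, 13 and 1 tags at the TSS, a ratio of 2.64 (0.936 to 8.47). Gbp9 had 8, 13 and 33 tags over the gene body, a ratio of 1.98 (0.761 to 5.51), and 10, 10 and 3 tags at the TSS, a ratio of 1.22 (0.455 to 3.26). Gbp4 had 14, 20 and 38 tags over the gene body, a ratio of 1.74 (0.836 to 3.73), and 2, 3 and 2 tags at the TSS, too few for the rule. The intervals of Gbp4 and Gbp9 in both windows, and of Gbp6 at the TSS, include 1. Their LPS levels lay between 0.0652 (Gbp9) and 0.134 (Gbp4) TPM per kb over the gene body with overlapping intervals, below the median gene at 0.345. Compared with input after LPS, Gbp9 had 0.475 times the level (0.229 to 0.927), Gbp4 0.634 times (0.350 to 1.12) and Gbp6 2.01 times (0.662 to 6.73). At the TSS the LPS ratio to input was 15.7 (2.35 to 666) for Gbp6 and 4.02 (1.03 to 22.7) for Gbp9. By the rule of at least 2 times input after LPS 5 of 7 members passed over the gene body, beside 32.8% of 18344 genes with enough tags, and 6 of 6 with enough tags at the TSS, beside 70.4% of 14535.

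The tags kept by the authors had 1 place in the genome with at most 2 mismatches, so a stretch with a near-identical copy elsewhere loses tags. Of the LPS tags in and close to the Gbp genes of both clusters 138 of 5070 still lay at such positions of the reference. Of the untreated tags 14 of 247 did so, at their length of 45 bases. The share was larger in the chromosome 5 members, where only 26 of 43 LPS gene body tags lay at 30-base sequence with 1 place. Over the chromosome 3 members 21.8% of the 30-base sequences had a second place in the genome by that rule, and over the chromosome 5 members 79.5%. For 45 bases, the untreated tag length, the shares were 14.2% and 62.8%, so the untreated library could read more of these genes than the LPS library. Gbp6 was the least readable at 96.5% (30 bases), and 92.9% of its 30-base sequences had their copy in Gbp10. The share was 83.6% for Gbp9, 57.7% for Gbp4, 36.8% for Gbp5, 19.7% for Gbp7, 12.9% for Gbp2 and 7.59% for Gbp3. The reference is of another strain than Fvb, so copies present only in Fvb were not counted.

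Counting only tags whose first 30 bases have 1 place puts all libraries on the same sequence. The 3 chromosome 5 members then had 26 LPS and 11 untreated tags over the gene body, a ratio of 2.88 (1.38 to 6.46), against 2.18 (1.30 to 3.76) with all tags. At the TSS they had 19 and 6 tags, a ratio of 3.86 (1.48 to 11.8), against 1.76 (0.929 to 3.41). Gbp9 changed most. At such sequence lay 0 of its 10 untreated TSS tags and 9 of its 10 LPS tags, so that the LPS level was at least 3.66 times higher against a floor of 3 tags, while the lower limit of the exact interval for these counts is 2.41. Only 5 of the 10 untreated tags lay at 45-base sequence with 1 place in the reference. Over the gene body the ratio of Gbp9 went from 1.98 to 3.25 (3 against 8 tags) and that of Gbp4 from 1.74 to 2.84 (6 against 14 tags), and Gbp6 kept 2 and 4 tags, a ratio of 2.44 from fewer than 10 tags. At the TSS the ratio of Gbp6 went from 2.64 to 1.62 (6 against 8 tags), below 2 times. The chromosome 3 members kept most of their tags, with 2115 of 2173 LPS tags left in Gbp5 and 1069 of 1091 in Gbp2.

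**Figure D3:**
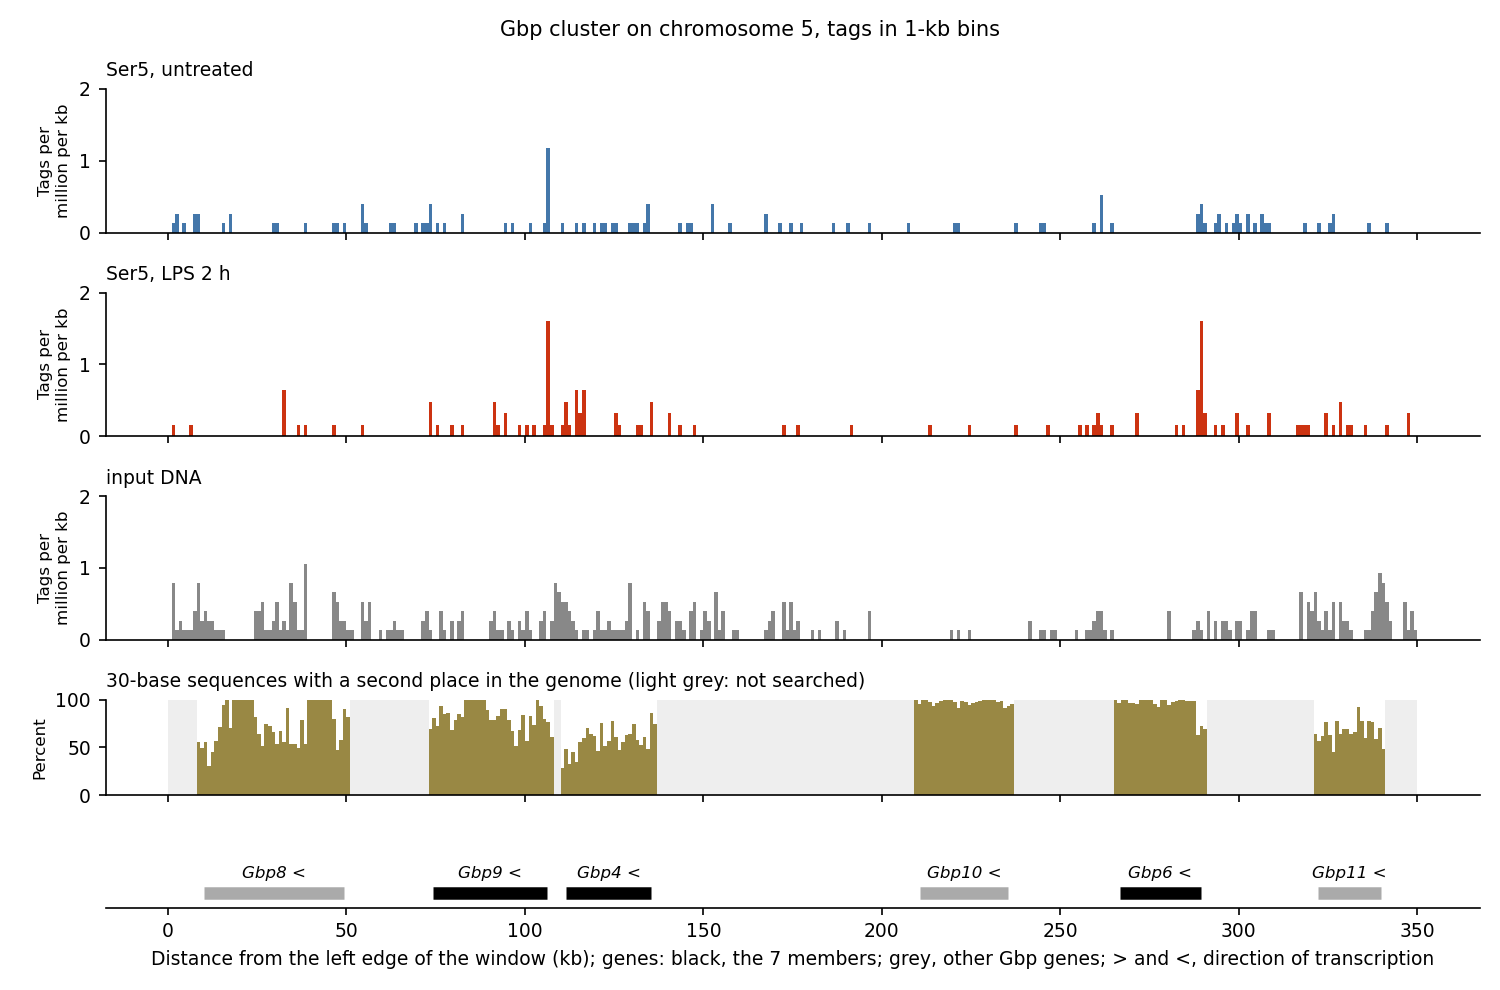
TPM in 1-kb bins over the Gbp cluster of chromosome 5 in the 3 libraries (top 3 panels, same linear scale), the share of 30-base sequences with a second place in the genome, and the genes. No bin reaches 2 TPM per kb in any library, input tags are missing over most of Gbp10 and Gbp6, and the highest LPS bins lie at the starts of Gbp9 and Gbp6.

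Divided by the readable length, LPS Ser5 over the gene body was 21.0 (20.1 to 21.9) TPM per kb for Gbp5, 11.3 for Gbp2, 5.64 for Gbp3 and 3.78 for Gbp7. The same measure was 0.788 (0.215 to 2.02) for Gbp6, 0.245 (0.106 to 0.482) for Gbp9 and 0.222 (0.122 to 0.373) for Gbp4. The readable part of Gbp6 was 0.812 kb and that of Gbp9 5.23 kb at 30 bases, which sets how little can be said of them. At the TSS the LPS values per readable kb were 3.06 (1.40 to 5.80) for Gbp9 and 2.21 (0.956 to 4.36) for Gbp6, against 13.8 (11.8 to 16.1) for Gbp3, the lowest of the chromosome 3 members. The intervals of both groups do not overlap in either window.

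In the deposited peak lists only chromosome 3 members had Ser5 peaks. In the untreated list 1 of 7 members, Gbp7, had a Ser5 peak within the TSS ± 1 kb, where 48.0% of all protein-coding genes had one, and the same peak alone touched a member gene body (53.3% of all genes). In the LPS list Gbp2, Gbp3, Gbp5 and Gbp7 had a peak in both windows, 4 of 7 members beside 45.9% at the TSS and 50.6% over the gene body. No peak of either list lay anywhere in the chromosome 5 cluster. There 79.5% of the members' 30-base sequences had a second place, and whether this kept peaks from being called was not tested. The untreated peak at Gbp7 (chr3:142193072-142193461) had a score of 51.21, where the score is the negative log10 of the MACS p-value times 10, and held 13 untreated, 85 LPS and 5 input tags.

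The LPS list held 66 peaks in the chromosome 3 cluster, counted from 5 kb before Gbp5 to 5 kb after Gbp2, of which 14 lay outside genes. They ranged from 193 to 2989 bp in length with a median of 469 bp, and 25 of the 66 held 0 untreated tags. All 66 were called on the LPS library, so that few untreated beside many LPS tags in them follows in part from the choice. In Gbp2 20 peaks covered 79.3% of the gene, in Gbp5 16 peaks 66.9%, in Gbp3 8 peaks 44.5% and in Gbp7 8 peaks 16.0%. The peak with the highest score of the cluster, 3100.0, lay over the start of Gbp5 (chr3:142159513-142160929) with 12 untreated and 724 LPS tags.

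**Figure D4:**
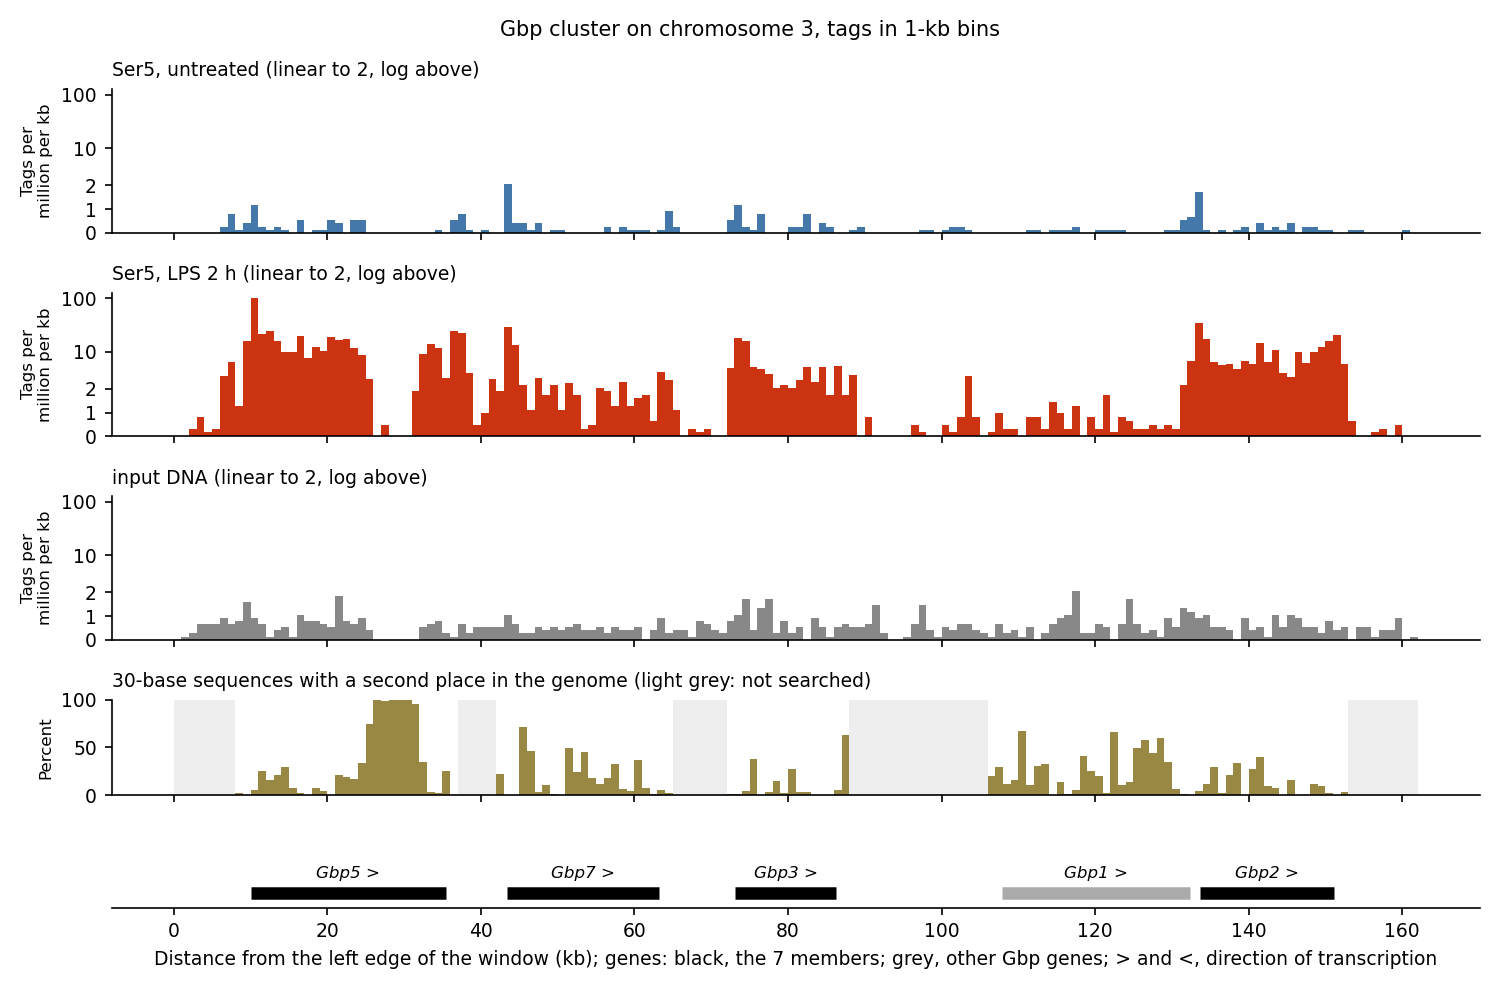
TPM in 1-kb bins over the Gbp cluster of chromosome 3 in the 3 libraries (top 3 panels, linear to 2 and logarithmic above), the share of 30-base sequences with a second place in the genome, and the genes. LPS tags lie along Gbp5, Gbp7, Gbp3 and Gbp2 and past their ends, with low bins inside Gbp5 and Gbp7. Gbp1 stays low. The gap inside Gbp5 falls where the share nears 100% and input tags are missing too.

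The LPS signal was highest at the start of the gene in 3 of the 4 genes. In 200-bp bins the highest LPS bin was the one centred 100 bp after the TSS in Gbp5 (196.0 TPM per kb), Gbp2 (110.0) and Gbp7 (38.4). In Gbp3 it was centred 500 bp after the TSS at 30.4. Behind the TSS the course differed between genes. The rest of each gene body was cut into 3 equal parts. In Gbp2 the LPS level in the first, middle and last part was 6.29, 7.78 and 10.1 TPM per kb. The last part of Gbp2 was also the most readable. There 4.56% of the 30-base sequences had a second place, against 16.8% in the first and 18.7% in the middle part. How much of the difference follows from this was not tested. In Gbp3 the LPS level was 6.28, 3.04 and 2.88, and in Gbp7 2.66, 1.41 and 1.56. In Gbp5 it was 15.0, 10.4 and 4.69, but 63.7% of the 30-base sequences in the last part of Gbp5 had a second place, and 36.6% in the middle part. A stretch of 6527 bp over the end of the middle and the start of the last part (chr3:142175203-142181729) held no peak, 0 untreated, 13 LPS and 0 input tags, and 99.6% of its 30-base sequences had a copy elsewhere.

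**Figure D5:**
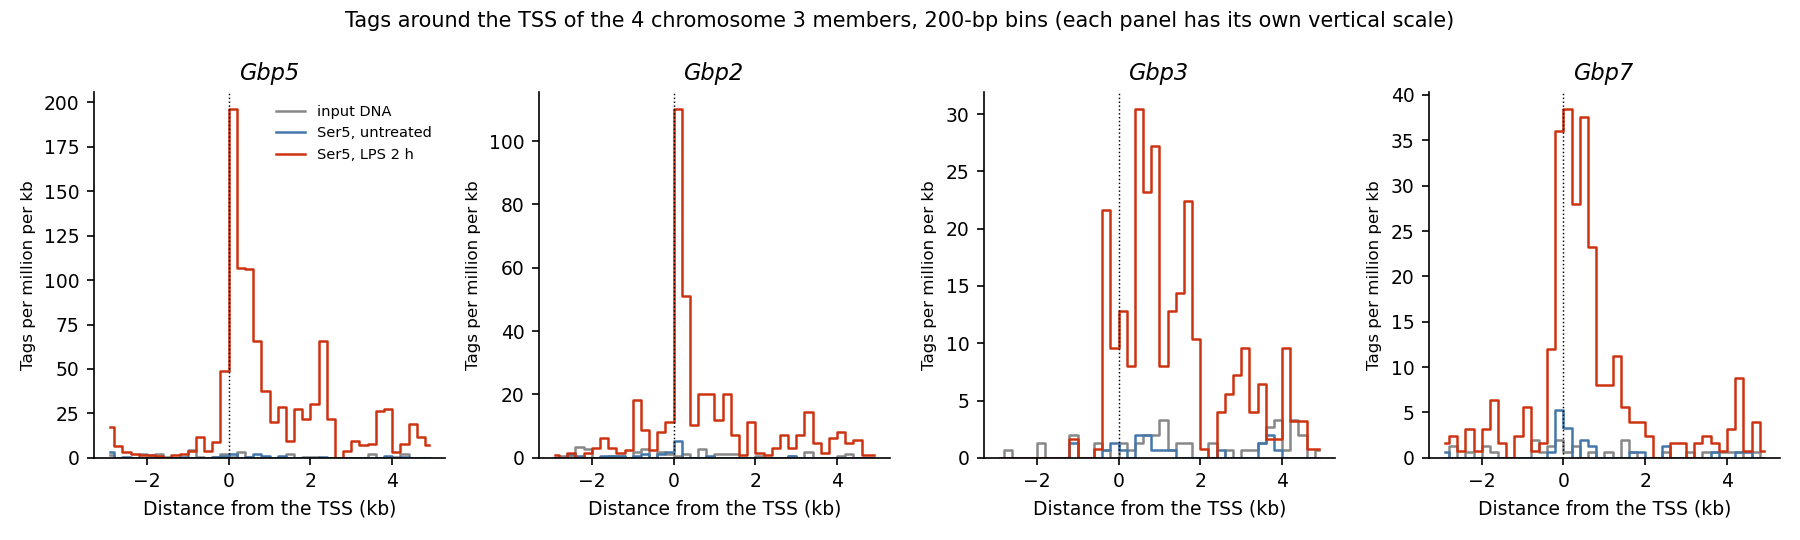
TPM per kb in 200-bp bins from 3 kb before to 5 kb after the TSS of the 4 chromosome 3 members, for LPS Ser5 (red), untreated Ser5 (blue) and input (grey), with a vertical scale of its own in each panel. Gbp5 and Gbp2 show a narrow maximum just after the TSS, at 196.0 and 110.0, Gbp7 a broader one at 38.4, and Gbp3 several maxima up to 30.4.

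Ser5 Pol_II tags also lay past the annotated gene ends after LPS. Whether they belong to transcription running on from the gene or to separate extragenic sites was not tested. In the first 2.5 kb downstream the LPS level was 18.6 TPM per kb for Gbp5 (291 LPS and 9 untreated tags), 10.5 for Gbp2 (164 and 1 tags), 4.22 for Gbp3 (66 and 1 tags) and 2.94 for Gbp7 (46 and 9 tags). From 2.5 to 5 kb downstream it was 2.37 for Gbp5, 0.384 for both Gbp3 and Gbp7, and 0 for Gbp2. The extragenic LPS peaks with the highest scores of the cluster lay past the ends of Gbp5 and Gbp2. Past Gbp5 were chr3:142186434-142188088 (score 2230.01, 10 untreated and 235 LPS tags) and chr3:142185791-142186257 (score 967.35, 1 and 82 tags). Past Gbp2 was chr3:142301056-142302105 (score 1490.44, 0 and 138 tags). Upstream of Gbp5 a separate LPS peak (chr3:142156533-142157416, score 306.7) was centred 2890 bp before the TSS with 8 untreated, 52 LPS and 3 input tags, a ratio of 7.92 (3.74 to 19.3). Another extragenic LPS peak (chr3:142253315-142253677, score 120.38), centred 4315 bp before the TSS of Gbp1, held 1 untreated and 21 LPS tags. It lies between Gbp3 and Gbp1, outside every Gbp gene. These LPS peaks were called on the LPS library, so that a higher LPS count in them follows from the choice.

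The other Gbp genes gave the setting of the members. Gbp1, between Gbp3 and Gbp2, had 18 untreated, 103 LPS and 112 input tags over the gene body, a ratio of LPS to untreated of 6.97 (4.20 to 12.2), and its LPS level was 1.11 (0.840 to 1.46) times input. At the TSS Gbp1 had 0 untreated and 8 LPS tags, at least 3.25 times higher against the floor, with a lower limit of the exact interval of 2.08. The share of repeated 30-base sequence over Gbp1 was 25.9%, between those of Gbp7 and Gbp5, and no peak of either list touched it. Gbp8, Gbp10 and Gbp11 had 8, 2 and 5 untreated and 7, 2 and 9 LPS tags over the gene body. Of the nearest genes that are no GBPs, Pdlim5 and Ccbl2 beside the chromosome 3 cluster had gene body ratios of 1.50 and 1.40. Abcg3 and Lrrc8b beside the chromosome 5 cluster had 1.09 and 0.849. Over the gene body 0 of these 4 reached 2 times in either direction, beside 5.82% of all genes tested higher and 11.2% lower. With shares this small, 4 genes are too few to tell from the background. The TSS window of Abcg3 held 19 untreated and 0 LPS tags, and whether its sequence is repeated was not tested.

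The receptors and JAK kinases that act before the GBPs in the interferon pathway all held a Ser5 peak over the gene body before LPS. Among receptors and JAK kinases 2 of 7 were at least 2 times higher over the gene body and 0 lower. Of all genes tested 5.82% were higher and 11.2% lower. The median ratio of the 7 was 1.04 beside 0.873 for all genes. Jak2, a kinase of the γIFN receptor, went from 303 to 1289 tags with a ratio of 5.18 (4.57 to 5.90). Tyk2, a kinase of the type I receptor, went from 430 to 880 tags, a ratio of 2.49. The γIFN receptor chains Ifngr1 and Ifngr2 had ratios of 1.04 and 0.956. Of 5 IRF transcription factor genes 2 were at least 2 times higher, beside the same 5.82% of all genes tested. Irf1, an activator of GBP genes, went from 525 to 2181 tags with a ratio of 5.06 (4.60 to 5.58), and Irf7, a factor of the type I response, had a ratio of 2.62 (2.36 to 2.91). Irf9 and Irf2 had ratios of 1.64 and 1.28, and Irf8, a lineage factor of macrophages, was lower at 0.411 (0.369 to 0.456). All 7 receptor and kinase genes had an untreated peak over the gene body, against 1 of 7 GBP genes and 53.3% of all genes. At the TSS 6 of these 7 had one, against 1 of 7 GBP genes and 48.0% of all genes.

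Other interferon-induced GTPases were also higher after LPS. All 5 immunity-related GTPases, which act with GBPs on vacuoles, were at least 2 times higher over the gene body, beside 5.82% of all genes tested, with a median ratio of 9.55. At the TSS 4 of the 4 with enough tags were higher, beside 5.61%, with a median of 4.03. They ranged from 3.64 (3.23 to 4.11) for Irgm1 to 14.2 (4.48 to 72.3) for Tgtp1, which had 3 untreated and 35 LPS tags, and Tgtp1 and Tgtp2 are near-identical copies. Of the other dynamin-like GTPases 3 of 6 were higher, with a median of 3.22. These were the antiviral genes Mx1 at 15.7 (13.6 to 18.2) and Mx2 at 12.8 (11.5 to 14.2), and Gvin1 with 3 and 11 tags. The membrane-shaping atlastins Atl1, Atl2 and Atl3 had ratios of 1.97, 0.794 and 1.01. At the TSS 2 of 5 of this list were higher and its median was 0.767, below 1.

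Genes that place GBPs and genes that act after them were also listed. Of the ATG8 proteins and their conjugation factors, which bring GBPs to vacuoles, 0 of 9 were higher or lower by the rule. Their ratios lay between 0.651 (Gabarapl2) and 1.05 (Map1lc3b), with a median of 0.867. That median is close to the 0.873 of all genes, of which 5.82% were higher and 11.2% lower. Of the inflammasome partners 3 of 5 were higher and 0 lower, with a median of 3.40, and at the TSS 3 of 4 with a median of 2.71. Nlrp3, an inflammasome sensor, had a ratio of 4.45 (4.11 to 4.83), Casp4, the caspase that binds LPS in the cytosol, 3.73 (3.02 to 4.63), and Casp1 3.40 (2.57 to 4.53). Aim2, a DNA sensor, had 1.90 (1.69 to 2.14) and Gsdmd, the pore protein, 1.47 (1.19 to 1.81).

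Likeness was measured as the distance on the log2 scale between a gene's levels in the 3 libraries and the family centre. Over all 7 members the nearest genes were Il7 (distance 0.364, 26 untreated, 336 LPS and 87 input tags), Mycl1 (0.735), Gm17247 (0.849), 3425401B19Rik (0.856) and Gm4862 (0.863), of which Gm17247 and Gm4862 rest on 0 untreated and 2 LPS tags each. Around the centre of the chromosome 3 members alone they were Mmp13 (0.592), Lcn2 (0.660), Slc7a11 (0.699), Il12b (1.12) and Tnfsf15 (1.16). A pattern over 3 libraries is a small basis, and likeness here is no more than similar levels.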

How the data were processed

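The files were deposited as aligned tags (position and strand) for 3 libraries and as peak lists for both Ser5 libraries. The authors trimmed 76-base reads, aligned them to mm9 with Bowtie (version not given in the sources used here), kept unique matches with at most 2 mismatches and called peaks per library with MACS against input (p-value of at most 1e-05). The deposited peak score is the negative log10 of the MACS p-value times 10. The tag files hold positions and no expression unit.

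Tags on chromosomes 1 to 19 and X were counted by their 5′ end over GENCODE M1 gene records and the TSS ± 1000 bp, and expressed as TPM (tags scaled to a library total of 1000000) per kb. Ratios have exact intervals conditional on the sum of the counts, and levels have exact Poisson intervals, both of 95% and for counting error only, since PCR copies are not independent molecules. With 1 library per condition, genes were called by size alone: at least 2 times, in genes with at least 10 tags over both libraries, with 0 tags set to 0.5. A fold against 0 tags is given against a floor of 3 tags per library. Sequences of 30, 36 and 45 bases in the Gbp genes were compared with every assembled chromosome of the mm9 genome, allowing 2 mismatches, and unplaced contigs were not searched. Counting, interval and sequence search functions were tested on simulated data. Named genes were all members, the other Gbp genes, the nearest other gene on each side of both clusters, pathway lists and cell type markers (1 macrophage marker of 8, Spi1, was not found under that symbol), and the 5 genes nearest to the mean of the members on the log2 scale. The members and lists were chosen with earlier results of these data known. The list of transcription factors of the pathway is not reported here as a whole. Alternatives were counting identical tags once, moving tags by 75 bp downstream, scaling to tags outside the peaks, tags at unique 30-base sequence, the longest coding transcript, a TSS window of 500 bp on each side, no minimum of tags, peaks with p of at most 1e-10 and an overlap of at least 50% of the peak. Python 3.11.15, numpy 2.4.6, pandas 2.3.3, scipy 1.17.1, numba 0.67.0 and matplotlib 3.10.9 were used.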

Additional observations from a re-analysis of the deposited data

How the results depend on the processing

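The ratio of LPS to untreated over all members kept its direction and moved by less than its counting interval under all alternatives run. Of the single members, Gbp9 at the TSS went from 1.22 to 0.812 with a window of 500 bp on each side, and both intervals include 1. The ratio to input depended on the scaling and the window. Scaled to tags outside the peaks it was 0.705 over the gene bodies and 2.04 at the TSS in untreated cells, and 25.8 and 51.9 after LPS. With a TSS window of 500 bp on each side it was 1.53 in untreated cells and 37.5 after LPS. At unique 30-base sequence the untreated ratio at the TSS was 0.905 against 1.07, and that of the chromosome 5 members alone 0.989 against 2.97. Scaled outside the peaks the LPS ratio of the chromosome 5 gene bodies was 1.38 against 0.673. The untreated peak of Gbp7 did not reach a p of 1e-10, which left 0 members with an untreated peak in either window, and less than 50% of it lay inside the gene, which left 0 by that rule over the gene body. Over the gene body 5 members were at least 2 times higher, and 6 with 1 tag per position and strand, with scaling outside the peaks and at unique 30-base sequence, where 6 were tested and Gbp6 had too few tags. At the TSS 4 of 5 were higher there, against 5 of 6, since Gbp6 had a ratio of 1.62. With exact matches in place of 2 mismatches the share of repeated 30-base sequence was 45.5% in the chromosome 5 members and 13.0% in the chromosome 3 members. By definition the other scaling changes a ratio between 2 libraries by the same factor in every gene. The share with exact matches cannot exceed that with up to 2 mismatches. The cause of the other moves was not tested. At the TSS 3 alternatives for Gbp4 and 1 for Gbp9 left 0 untreated tags and gave no ratio. No paired analysis was possible because each condition had 1 library. The chromosome 5 members each held between 10 and 20 LPS tags over the gene body, which makes their intervals wide.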
